A study of Mus musculus with 36 samples.

Results

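The bone morphogenetic protein (Bmp) pathway was followed through 10 genes, chosen by symbol from the 22761 genes of the table: the ligands Bmp2, Bmp4, Bmp5 and Bmp7, the secreted antagonists and modulators Grem1, Nog, Bmper and Chrdl1, the target gene Id1 and the feedback inhibitor Smad6. All 10 symbols were found, and all 10 genes could be tested in every comparison except Bmper in the ureteric bud at E12.5 against E11.5, where it was too low. The study sequenced the RNA of 36 sorted samples in 9 groups of 4: ureteric bud (UB), stromal progenitors (SP) and nephron progenitors (NP) taken from CD1 mouse kidneys at E11.5 and at E12.5 (24 "ex-fetu" samples), and the same 3 cell types made from mouse embryonic stem cells (12 samples), called eUB, iSP and iNP here (the labels write iUB for eUB). The question was how close the stem cell-derived cells come to the kidney's own cells.

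In each ex-fetu sample, the kidneys from 1 mouse litter were pooled, with no allele or treatment named in the labels, and a stem cell-derived sample pooled the embryoid bodies of 1 differentiation batch. iSP and iNP came from the same cultures of the E14 line, whereas eUB came from a reporter line given as Sox9-mCherry (a Sox8-mCherry line is described elsewhere in the methods) under another protocol, so line and protocol cannot be told apart from cell type where eUB is set beside iSP or iNP. Human BMP4 protein was added for a step of both protocols and was removed before the last medium. NP and iNP were sorted as ITGA8-high and PDGFRA-low cells, SP and iSP as ITGA8-low and PDGFRA-high cells, in each case after cells with CD31 or with EpCAM and RET had been gated away, UB as cells with RET and EpCAM, and eUB as cells with EpCAM and mCherry. Another tag of the ex-fetu UB samples gives the opposite age from their titles. The titles were used, so the direction of change with age in UB rests on them. The age given to each UB group also rests on the titles in every comparison of eUB or of UB with SP or NP. If the tag were right, the values given for eUB against E11.5 and against E12.5 would change places.

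As background, Bmp ligands are secreted dimers that bring type I and type II receptors together on the receiving cell, where the receptors phosphorylate Smad1, Smad5 and Smad9. These enter the nucleus with Smad4 and switch on targets that include the Id genes and Smad6, which in turn blocks the receptors. Antagonists such as gremlin (Grem1) and noggin (Nog) bind the ligands outside the cell and keep them from the receptors. In the early kidney, Bmp7 keeps nephron progenitors alive, Bmp4 from the mesenchyme around the duct restrains budding, and Grem1 relieves that restraint so that the ureteric bud can grow out and branch.

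The sequence just upstream of the start site is shown for 3 members, because Smad6 is the feedback gene of the pathway and Grem1 and Bmper were among the members that differed most between iSP and the kidney's SP. Of the 10 members, 5 (Bmp4, Bmp5, Grem1, Bmper and Smad6) are in the RefSeq promoter table used (build GRCm38.p6). Each run is written 5′ to 3′ on the strand of the gene and covers the 250 bases before the start site, and for Smad6 also the first 4 transcribed bases. Capitals mark 2 palindromes, GTCTAGAC, to which Smad proteins are known to bind, and GGCGCC, a GC-rich element described for the Bmp-specific Smads.
Smad6 (chr9:64022056-64022309, minus strand): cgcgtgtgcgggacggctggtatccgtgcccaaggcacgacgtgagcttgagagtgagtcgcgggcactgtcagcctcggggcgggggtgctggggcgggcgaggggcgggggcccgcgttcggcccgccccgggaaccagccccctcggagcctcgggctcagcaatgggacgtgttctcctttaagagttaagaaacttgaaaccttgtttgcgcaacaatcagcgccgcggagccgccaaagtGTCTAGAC
Grem1 (chr2:113758649-113758898, minus strand): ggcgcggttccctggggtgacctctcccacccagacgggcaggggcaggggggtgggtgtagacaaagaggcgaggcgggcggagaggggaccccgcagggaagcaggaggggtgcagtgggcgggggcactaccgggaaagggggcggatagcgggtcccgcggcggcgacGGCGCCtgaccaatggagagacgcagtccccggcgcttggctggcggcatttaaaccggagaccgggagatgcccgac
Bmper (chr9:23222826-23223075, plus strand): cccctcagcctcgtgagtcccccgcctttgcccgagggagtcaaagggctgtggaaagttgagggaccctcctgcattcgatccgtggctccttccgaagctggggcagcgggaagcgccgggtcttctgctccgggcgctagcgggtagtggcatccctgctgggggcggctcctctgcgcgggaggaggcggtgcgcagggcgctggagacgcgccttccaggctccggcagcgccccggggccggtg

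Both strands were searched at once, since each motif is its own reverse complement. GTCTAGAC spans the start site of Smad6, from base -4 to base 4, and was found in 70 of the 32851 promoter windows of 300 bases in the table (0.213%). GGCGCC lies 78 to 73 bases before the start site of Grem1 and is common, being in 3898 windows (11.9%). Neither motif was found in the windows of Bmp4, Bmp5 or Bmper, which says only that these letters are not there. Over the 250 upstream bases, GC content was 66.8% for Smad6, 72% for Grem1 and 71.6% for Bmper, against 42.8% for Bmp5.

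Values are CPM, read counts relative to the total reads of the library, scaled by the authors (called normalised CPM here), and fold changes are differences of log2(value + 1), which understates the change of a gene near 1. Libraries held 13 to 52.5 M reads on genes (median 27.4 M), and 3 reads were worth 0.0605 to 0.223 normalised CPM, so every member was above that limit in every group mean. The sorted cells carried the defining markers of their labels, with exceptions. Foxd1, a defining marker of SP, was 11.4 to 19.2 in iSP against 265 to 563 in E11.5 SP, and it was 15.0 to 29.5 in eUB. For FOXD1 protein, the paper reports staining in sorted iSP. Six2, which defines NP, was 116 to 152 in iNP against 557 to 641 in E11.5 NP. Itga8, a marker of the NP sort, was 212, 75.5, 210 and 230 in iNP libraries 1 to 4 against 86.0 to 118 in E11.5 NP, so library 2 stood apart, as it did in Id1 and Bmp7. Pdgfra was 363 to 434 in iSP and Ret was 420 to 498 in eUB. Because these are bulk samples, fewer cells of a type and less RNA per cell cannot be told apart. Macrophage markers (6 of 6 in the table) summed to 52.9 to 92.4 in E11.5 UB and 39.0 to 75.1 in E12.5 UB but to 0.223 to 0.558 in eUB, where C1qa and Tyrobp were at 0. Other marker sums also stood apart between eUB and E11.5 UB. Ureteric bud markers (8 of 8) were lower in eUB, at 2176 to 2391 against 3216 to 3455, as were erythroid markers (7 of 8), at 0.0859 or less against 5.11 to 43.8. Stromal markers (8 of 8) were higher, at 228 to 252 against 148 to 163, as were ureteric mesenchyme markers (6 of 6), at 157 to 179 against 104 to 118, and Itga8 was 9.76 to 10.4 against 0.402 to 0.982. The part of these markers in the UB results was not tested.

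Library 1 of each E12.5 group stood apart in the members. Smad6 was 48.5, 78.3 and 80.9 in library 1 of E12.5 UB, SP and NP, against 18.5 to 27.97 in the 9 other E12.5 libraries. E12.5 SP library 1 was also the highest of its group in Bmp2 (21.1), Bmp4 (43.5), Grem1 (13.2) and Nog (22.5), and its Pdgfra was 204 against 551 to 622. E12.5 UB library 1 held mesenchymal and endothelial RNA, with Six2 at 94.8 (7.43 to 13.53 in the other libraries), Itga8 at 73.7, Pdgfra at 50.8 and Cdh5 at 26.1. A sum of 8 early response genes (Fos, Fosb, Egr1, Jun, Junb, Atf3, Dusp1 and Ier2), a list chosen after the values had been seen, was 6477 in E12.5 SP library 1 against 1395 to 2060 in the others and 1670 in E12.5 NP library 1 against 456 to 643, but 2289 against 2156 to 2227 in E12.5 UB. It was also high in eUB, at 4351 to 6827 against 1708 to 2437 in E11.5 UB and 2156 to 2289 in E12.5 UB, and its part in the eUB results was not tested. In eUB the mean of Smad6 was 29.4, below the means of the E12.5 groups with all libraries (32.4 to 38.0) and above those without library 1 (20.8 in SP, 23.7 in NP and 27.0 in UB). The part of these markers and early response genes in the values of library 1 was not tested, and the E12.5 calls gained without library 1 are given with each comparison. Library 1 was picked out by its values in these same members. The adjusted p-values of fits without it do not allow for that choice, so a call gained there is no separate support.

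**Figure D1:**
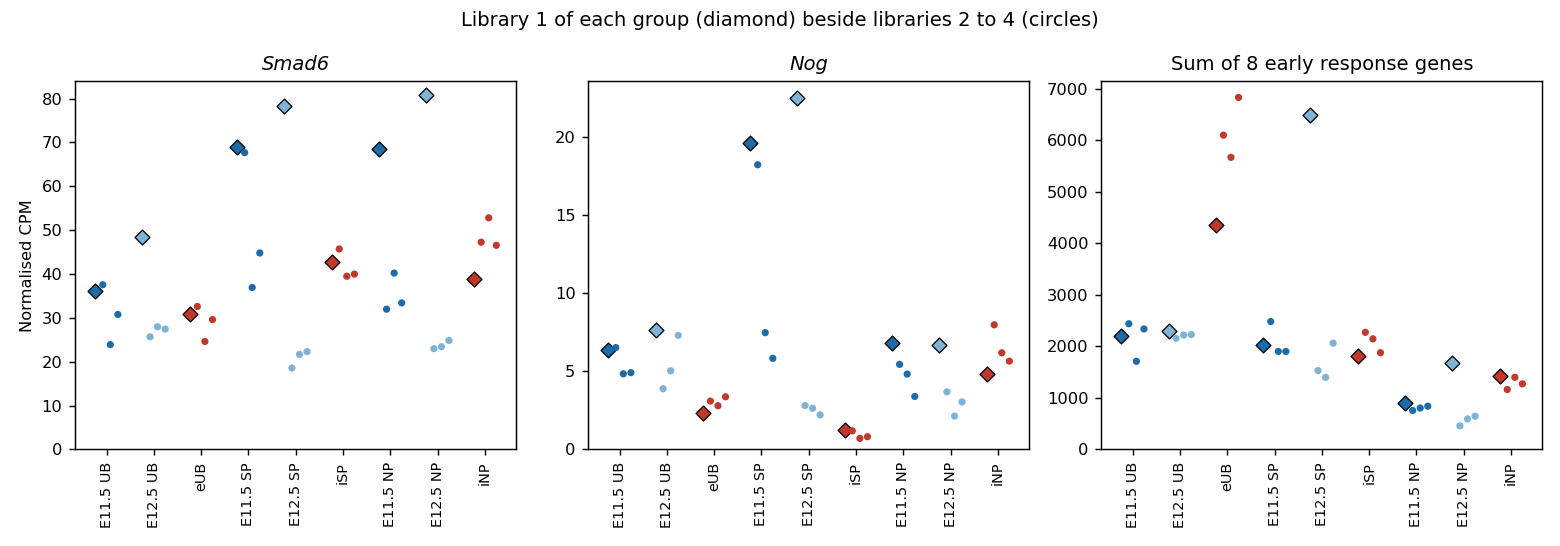
Smad6 and Nog (normalised CPM) and the summed normalised CPM of 8 early response genes in every library of the 9 groups. Diamonds are library 1 and circles libraries 2 to 4, in dark blue for E11.5, light blue for E12.5 and red for stem cell-derived cells. Smad6 in library 1 of E12.5 SP (78.3) and NP (80.9) lies far above the other libraries of the same group, and the early response sum is high in E12.5 SP library 1 (6477) and in eUB.

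Against E11.5, the stem cell-derived cells differed in 8 of the 10 members in eUB, 8 in iSP and 6 in iNP at an adjusted p under 0.05 (limma, Benjamini-Hochberg over all genes tested, here and throughout). Of all genes tested, 60.5% were called in eUB, 67.6% in iSP and 64.7% in iNP, so most genes, like most members, differed. In eUB 5 members were higher and 3 lower, in iSP 2 and 6, and in iNP 3 and 3. The genes called higher made up 32.1%, 35.5% and 35.5% of all genes tested in eUB, iSP and iNP, and those called lower 28.5%, 32.1% and 29.2%. The median log2 fold change of the 10 members was 0.13, -1.76 and 0.19, where that of all genes tested was 0.02, 0.04 and 0.07. In 1 fit over the 36 libraries, which pools the spread of all groups, 3 members were called in eUB (Bmp4, Bmp5 and Grem1), where 50.9% of all genes were.

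**Figure D2:**
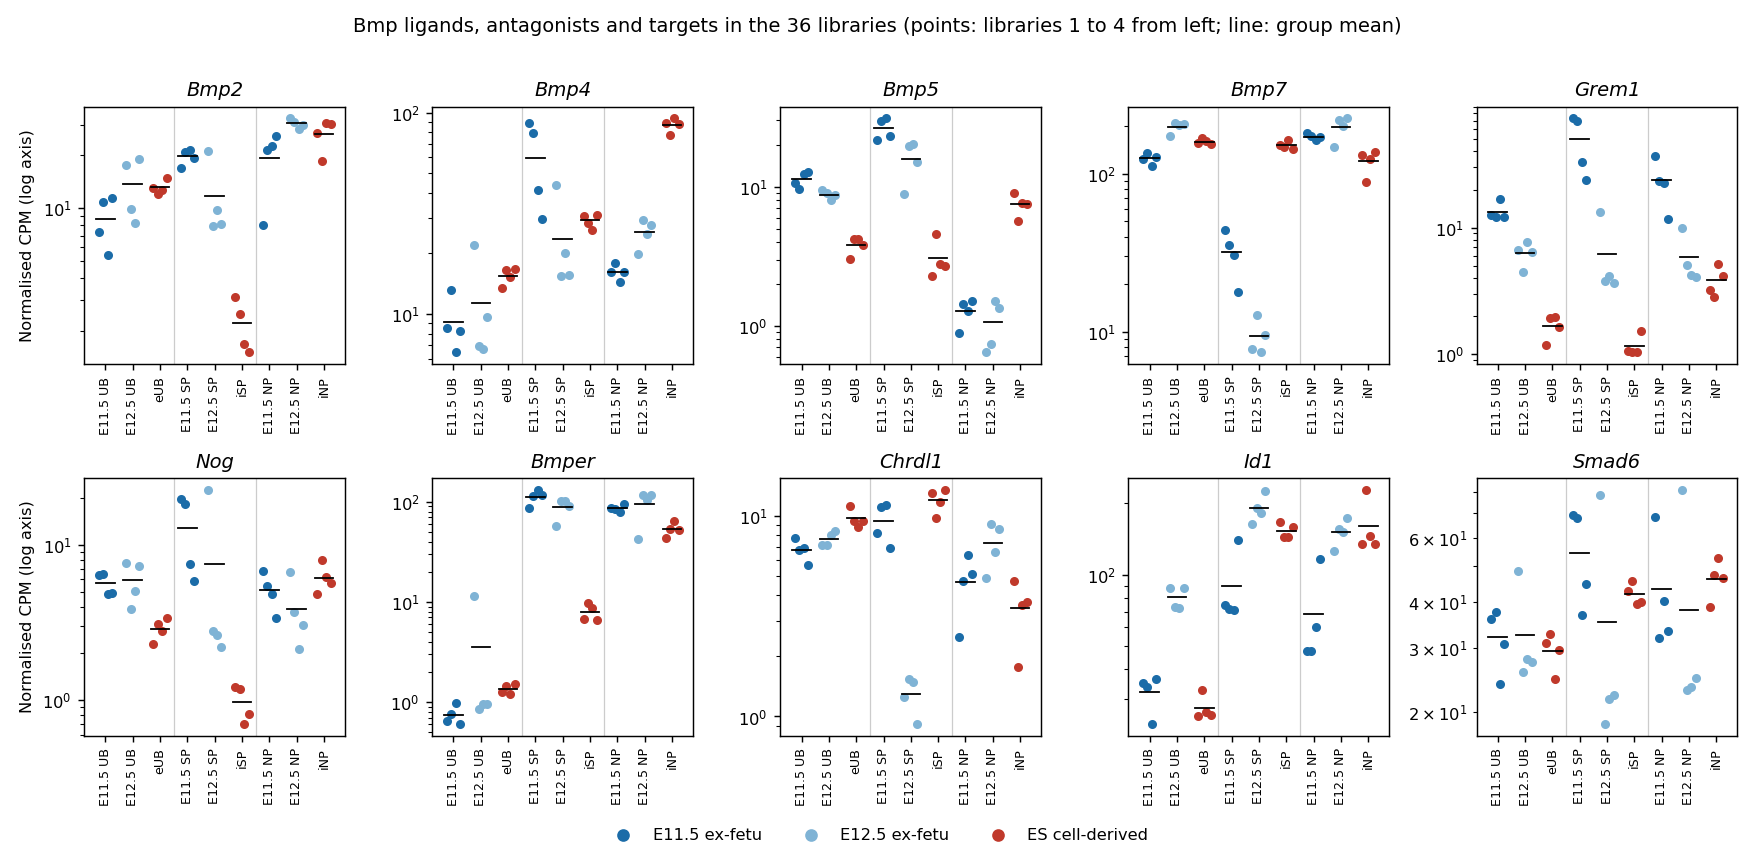
Normalised CPM (log axis) of the 10 members in every library. Points are libraries 1 to 4 from left to right and lines are group means, in dark blue for E11.5, light blue for E12.5 and red for stem cell-derived cells. Grem1 is lower in all stem cell-derived groups (means 1.16 to 3.83) than in the E11.5 groups (13.4 to 49.9), and Bmp7 is high in every group except ex-fetu SP.

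Bmp7 differed from E11.5 in all 3 cell types. In E11.5 SP it was 44.3, 35.3, 30.8 and 17.9 in libraries 1 to 4, and in iSP 152, 148, 165 and 143. All iSP libraries lay above all SP libraries, and the log2 fold change was 2.28 (SE 0.23, adjusted p = 1.8e-05). Bmp7 is the ligand that sustains nephron progenitors, and it was lower in iNP (132, 88.6, 125 and 137) than in E11.5 NP (183, 174, 164 and 171), by -0.53 (SE 0.14, adjusted p = 0.0062), with no overlap, although quantile normalisation ended this call (-0.27, adjusted p = 0.071). In eUB, where the mean was 161 ± 6.90 (SD, n = 4) against 125 ± 10.4 in E11.5 UB, it was higher by 0.36 (SE 0.08, adjusted p = 0.0026). The ES-derived groups thus held Bmp7 means of 121, 152 and 161, whereas the E11.5 groups ran from 32.1 in SP to 173 in NP.

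Bmp4, the mesenchymal ligand that restrains budding, had its highest mean in iNP. Its values there were 89.1, 77.6, 93.6 and 88.2, against 16.1, 17.9, 14.5 and 16.1 in E11.5 NP. The groups were far apart (log2 fold change 2.36, SE 0.10, adjusted p = 1e-07). Markers of other cell types moved with the iNP changes: ureteric mesenchyme markers (6 of 6 in the table) summed to 523 to 620 in iNP against 215 to 277 in E11.5 NP, with Tbx18 at 4.44 to 6.61 against 1.03 to 3.0005. Endothelial markers (8 of 8) summed to 65.9 to 118 against 10.5 to 33.5, and ureteric bud markers to 94.6 to 126 against 35.7 to 63.3. Pdgfra, which the NP sort selects low, was 17.7 to 44.9 against 1.98 to 3.04, and the early response sum was 1160 to 1427 against 754 to 903. Nephron progenitor markers (8 of 8) were lower in iNP, at 754 to 1155 against 1860 to 2105, as were erythroid markers, at 0.0656 to 0.146 against 9.47 to 56.6. Their part in the iNP results was not tested. In SP the order was the other way round, with 30.7, 28.5, 26.2 and 31.2 in iSP and 89.2, 79.1, 41.4 and 29.8 in E11.5 SP. These ranges overlapped, since E11.5 SP library 4 fell within iSP, and the difference of -0.88 (SE 0.31, adjusted p = 0.028) missed the threshold in the 6 fits that left out E11.5 SP library 1 or 2 or any 1 iSP library (adjusted p 0.0502 to 0.0698). In eUB Bmp4 was 15.5 ± 1.52 against 9.09 ± 2.88 in E11.5 UB, higher by 0.75 (SE 0.18, adjusted p = 0.0049). Bmp4 and Bmp5 each share exon positions with 1 gene on the opposite strand, and whether the counting used strand is not given in the sources used here, so that their levels are uncertain to that extent.

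Bmp5 moved in opposite directions in the mesenchymal cell types. In E11.5 SP it was 21.7, 29.6, 30.9 and 23.1, and in iSP 2.27, 4.55, 2.77 and 2.703 (log2 fold change -2.76, SE 0.18, adjusted p = 1.7e-06). In E11.5 NP it was 0.896, 1.44, 1.28 and 1.504, and in iNP 9.07, 5.67, 7.67 and 7.56 (1.89, SE 0.15, adjusted p = 5e-06). Neither pair of groups overlapped, and eUB was lower than E11.5 UB as well, at 3.81 ± 0.544 against 11.3 ± 1.43 (-1.36, SE 0.13, adjusted p = 1.2e-05).

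Bmp2, a ligand close to Bmp4 in sequence, was 3.14, 2.51, 1.70 and 1.52 in iSP and 17.0, 21.0, 21.5 and 19.5 in E11.5 SP. The fall of -2.71 (SE 0.17, adjusted p = 1.1e-06) left iSP lowest of the 9 groups. In iNP the mean was 26.5 ± 5.53 against 19.5 ± 7.82 in E11.5 NP, which did not pass the test (0.52, SE 0.32, adjusted p = 0.18). In eUB Bmp2 was 13.2 ± 1.21 against 8.74 ± 2.85 (0.59, SE 0.20, adjusted p = 0.026), a call that was lost without E11.5 UB library 1 (0.53, adjusted p = 0.072), without E11.5 UB library 3 (0.41, adjusted p = 0.051), without eUB library 4 (0.53, adjusted p = 0.068) and under quantile normalisation (0.35, adjusted p = 0.16).

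Grem1, which antagonises Bmp2, Bmp4 and Bmp7 at the budding front, was the only member lower in all 3 stem cell-derived cell types. In E11.5 SP it was 72.9, 69.6, 33.2 and 23.9, and in iSP 1.06, 1.04, 1.03 and 1.52 (log2 fold change -4.41, SE 0.33, adjusted p = 3.1e-06). In NP it was 36.8, 23.6, 22.5 and 11.8 against 3.24, 2.85, 5.13 and 4.12 in iNP (-2.27, SE 0.29, adjusted p = 0.0001). In UB it was 12.5, 12.2, 16.7 and 12.2 against 1.19, 1.92, 1.98 and 1.63 in eUB (-2.43, SE 0.14, adjusted p = 6.8e-07). No stem cell-derived library reached the lowest E11.5 library of its cell type.

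Noggin fell with Grem1 in eUB and iSP. Nog was 19.6, 18.2, 7.47 and 5.83 in E11.5 SP and 1.21, 1.182, 0.702 and 0.811 in iSP (-2.65, SE 0.34, adjusted p = 0.0001). In eUB the mean was 2.89 ± 0.454 against 5.65 ± 0.907 (-0.77, SE 0.14, adjusted p = 0.00079). In iNP it was 6.15 ± 1.33 against 5.11 ± 1.41, a difference that did not pass the test (0.24, SE 0.19, adjusted p = 0.3). Libraries 1 and 2 of E11.5 SP lay above libraries 3 and 4 in Nog, Grem1, Bmp4, Bmp7 and Smad6, while Bmper and Bmp5 did not follow that split. Ureteric bud markers (8 of 8 in the table) summed to 299.9, 258, 242 and 131 in E11.5 SP libraries 1 to 4 and to 82.2 to 92.4 in iSP, and erythroid markers (7 of 8 in the table) to 57.9, 216, 193 and 1246 and to 0.0483 or less in iSP, where 3 of 4 libraries were at 0. Ureteric mesenchyme markers summed to 409 to 566 in E11.5 SP and 239 to 264 in iSP, with Tbx18 at 92.1 to 127 and 14.4 to 18.3. Itga8, which the SP sort selects low, was 13.03 to 28.1 in E11.5 SP and 56.1 to 60.2 in iSP. Endothelial markers summed to 16.1 to 49.3 and 44.5 to 71.6, and macrophage markers to 1.14 to 2.19 and 0.101 to 0.435. The part of these markers in the SP results was not tested.

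Bmper, a secreted protein with chordin-like repeats that binds Bmp ligands and can lower or raise their signal, marked the mesenchyme of the kidney. It was 86.1, 116, 131 and 118 in E11.5 SP and 86.8, 85.5, 79.2 and 94.6 in E11.5 NP, but only 0.604 to 0.982 in E11.5 UB. In iSP it was 6.72, 9.71, 8.72 and 6.66, far below SP (-3.66, SE 0.16, adjusted p = 1.6e-07), whereas iNP held 43.3, 54.0, 63.8 and 52.9, below NP by -0.69 (SE 0.12, adjusted p = 0.0007). The iNP call was lost in 1 fit over 36 libraries (adjusted p = 0.097). All libraries of iSP and of iNP lay below those of their E11.5 counterparts. In eUB the mean of 1.36 ± 0.153 was above 0.749 ± 0.169 in E11.5 UB (0.44, SE 0.12, adjusted p = 0.01), both being low.

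Chrdl1, a chordin-like antagonist, passed the test against E11.5 in eUB alone. It was 9.69 ± 1.05 in eUB against 6.76 ± 0.862 in E11.5 UB (0.46, SE 0.12, adjusted p = 0.0064), and this call was lost under quantile normalisation (0.24, adjusted p = 0.15). In iSP it was 11.9 ± 1.62 against 9.36 ± 2.15 (0.33, SE 0.17, adjusted p = 0.1), and in iNP 3.46 ± 1.24 against 4.68 ± 1.63 (-0.35, SE 0.27, adjusted p = 0.28), so neither passed the test. Other scalings brought a call in each, in iNP under quantile normalisation (-0.75, adjusted p = 0.032) and in iSP under upper-quartile scaling (0.46, adjusted p = 0.029).

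**Figure D3:**
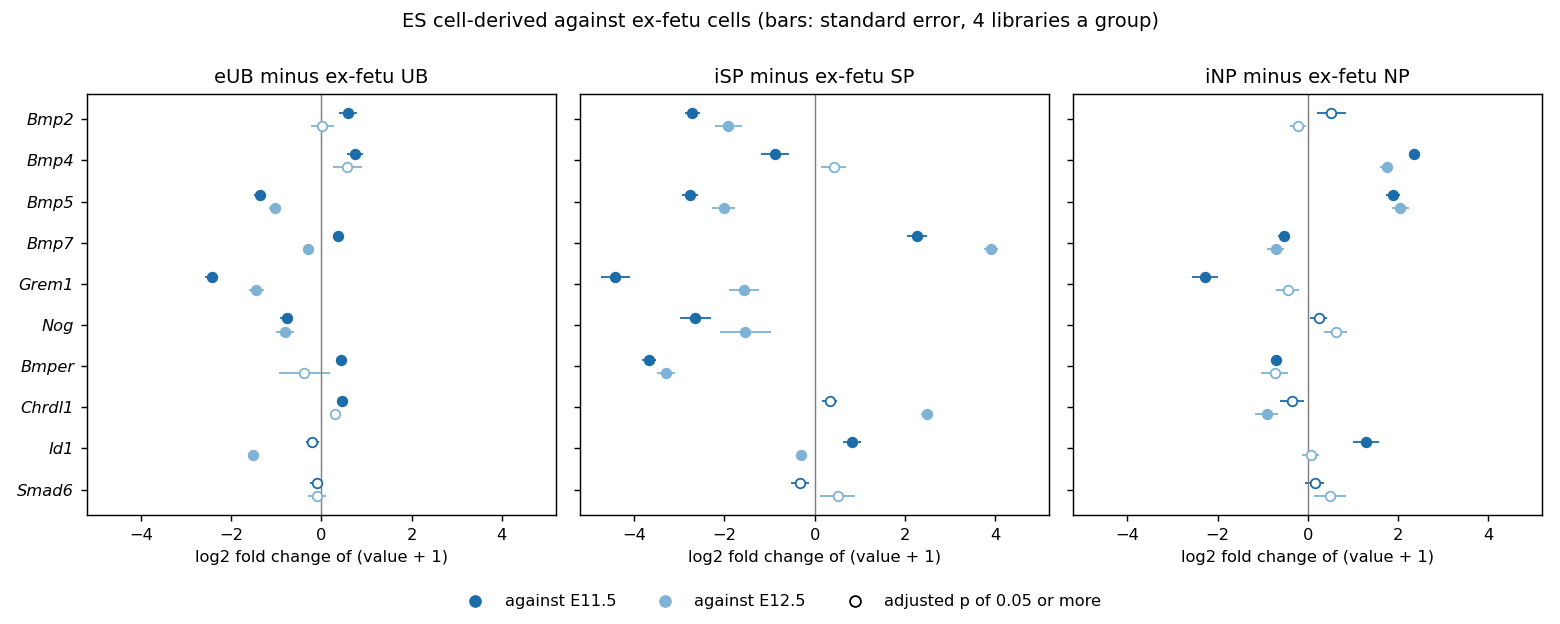
Log2 fold change of (value + 1) of the 10 members in eUB, iSP and iNP, each against the same cell type at E11.5 (dark blue) and at E12.5 (light blue). Bars are standard errors, and open points have an adjusted p of 0.05 or more. The antagonists Grem1, Nog and Bmper lie left of 0 in iSP at both ages, while Bmp7 lies right of 0 by 2.28 and 3.91.

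The target genes did not move together. Id1, an inhibitor of differentiation that Smad1 and Smad5 activate directly, reached 135, 228, 146 and 135 in iNP, whereas E11.5 NP held 47.5, 47.8, 60.0 and 117 (1.30, SE 0.29, adjusted p = 0.0028). In iSP it was 167, 145, 144 and 159 against 74.3, 72.04, 71.2 and 140 (0.83, SE 0.20, adjusted p = 0.0047). In both cell types library 4 was the highest of its E11.5 group, yet no group pair overlapped. In eUB Id1 was 27.5 ± 3.50, and the difference from 32.1 ± 5.86 in E11.5 UB did not pass the test (-0.20, SE 0.14, adjusted p = 0.25), although it did without E11.5 UB library 3 (-0.34, adjusted p = 0.023).

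Smad6 was the steadiest of the 10 genes. Its 9 group means ran from 29.4 in eUB to 54.6 in E11.5 SP, a ratio of 1.85, where the highest and lowest means of the other members stood 6.92 to 150 times apart. Without library 1 of the E12.5 groups the lowest Smad6 mean was 20.8 in E12.5 SP and the ratio 2.62, against 7.25 to 151 for the other members. Against E11.5 the log2 difference was -0.11 (SE 0.15, adjusted p = 0.56) in eUB, -0.32 (SE 0.19, adjusted p = 0.16) in iSP and 0.15 (SE 0.22, adjusted p = 0.57) in iNP. Leaving out 1 library brought a call in each mesenchymal cell type: iSP was lower by -0.49 (adjusted p = 0.022) without E11.5 SP library 3, and iNP higher by 0.39 (adjusted p = 0.031) without E11.5 NP library 1.

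Whether the change against E11.5 differed between cell types was tested directly, in 1 fit over the 36 libraries. The change in NP differed from that in SP for 7 of the 10 members, where 25.6% of all genes did. The largest of these differences was that of Bmp5, at 4.65 (SE 0.27, adjusted p = 5.2e-14), followed by Bmp4 at 3.24 (SE 0.43, adjusted p = 5.6e-07) and Bmp2 at 3.23 (SE 0.41, adjusted p = 2.9e-07), while Bmp7 differed the other way (-2.81, SE 0.25, adjusted p = 2.5e-10). The change in UB differed from that in SP for 8 members, where 39.9% of all genes did, with Bmper first at 4.10 (SE 0.51, adjusted p = 1.1e-07), and from that in NP for 5, where 41.8% of all genes did. Between NP and SP the differences of Chrdl1 (-0.68, adjusted p = 0.08), Smad6 (0.47, adjusted p = 0.53) and Id1 (0.46, SE 0.31, adjusted p = 0.3) did not pass the test.

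The same stem cell-derived libraries were set against E12.5, so the 2 ages are not independent. Called members numbered 5 in eUB (44.4% of all genes tested), 8 in iSP (62.1%) and 4 in iNP (44.3%). Without library 1 of the E12.5 group they numbered 6 in eUB (52.3% of all genes), 10 in iSP (70.6%) and 7 in iNP (44.1%). Bmp7 in iSP was further from E12.5 SP, which held 7.80, 12.7, 7.41 and 9.50 (3.91, SE 0.15, adjusted p = 7.9e-08), and Chrdl1, at 0.918 to 1.53 in E12.5 SP, was now higher in iSP by 2.49 (SE 0.14, adjusted p = 7.2e-07). Bmp7 in eUB turned from higher than E11.5 to lower than E12.5 (-0.30, SE 0.08, adjusted p = 0.014). Both of these calls were lost in 1 fit over 36 libraries (adjusted p = 0.089 and 0.16).

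Grem1 remained lower than E12.5 in eUB (-1.44, SE 0.17, adjusted p = 0.00025) and iSP (-1.56, SE 0.33, adjusted p = 0.0026), but in iNP the difference of -0.44 (SE 0.26) did not pass the test (adjusted p = 0.18), except under quantile normalisation (-0.83, adjusted p = 0.023). Nog was lower in iSP by -1.53 (SE 0.56, adjusted p = 0.037), and by -0.85 (adjusted p = 0.00034) without E12.5 SP library 1, while the call was lost on leaving out any 1 iSP library (adjusted p 0.0629 to 0.0792). Id1 in eUB was well below E12.5 UB, at 27.5 against 80.4 ± 8.77 (-1.51, SE 0.11, adjusted p = 2.2e-05). In iNP it stood at 161 against 151 in E12.5 NP (0.06, SE 0.19, adjusted p = 0.81). In iSP it was lower by -0.30 (SE 0.11, adjusted p = 0.035), which missed the threshold in 6 of the fits that left out 1 library, E12.5 SP library 2, 3 or 4 or iSP library 2, 3 or 4 (adjusted p 0.0508 to 0.0949), and under quantile normalisation (adjusted p = 0.35).

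Without library 1, Bmp4 in iSP was higher than in E12.5 SP by 0.75 (adjusted p = 0.00015), where with all libraries it had been 0.42 (SE 0.28, adjusted p = 0.22). Smad6 then passed the test as well, being higher in iSP by 0.98 (adjusted p = 6.4e-06) and in iNP by 0.93 (adjusted p = 0.00061) than in the 3 remaining E12.5 libraries. Smad6 and Bmp4 were among the members by which library 1 had been picked out, which these adjusted p-values do not allow for. In eUB against E12.5 UB, Bmp4 was higher by 0.92 (adjusted p = 0.00085) without library 1, and Bmper, not called in either fit, went from -0.38 to 0.29. In iNP, Bmper was then lower by -1.08 (adjusted p = 0.00047) and Nog higher by 0.86 (adjusted p = 0.007). Marker sums stood apart from E12.5 as well. E12.5 SP held 3324 to 5787 (stromal), 393 to 474 (ureteric mesenchyme) and 20.6 to 29.3 (endothelial), against 2986 to 3223, 239 to 264 and 44.5 to 71.6 in iSP. E12.5 NP held 1680 to 2772 (nephron progenitor), 266 to 319 (ureteric mesenchyme) and 10.9 to 36.9 (endothelial), against 754 to 1155, 523 to 620 and 65.9 to 118 in iNP. The part of these markers in the E12.5 results was not tested.

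From E11.5 to E12.5 in the kidney itself, Grem1 fell and Id1 rose in all 3 cell types. Grem1 fell by 0.99 (SE 0.16, adjusted p = 0.0029) in UB, by 2.86 (SE 0.44, adjusted p = 0.0069) in SP and by 1.83 (SE 0.34, adjusted p = 0.018) in NP on the log2 scale. Id1 rose by 1.31 (SE 0.14, adjusted p = 0.0006), 1.14 (SE 0.22, adjusted p = 0.015) and 1.24 (SE 0.26, adjusted p = 0.028) in UB, SP and NP. Its E12.5 values were 72.3 to 88.2 in UB, 163 to 226 in SP and 126 to 173 in NP, above every E11.5 library of the same cell type. Called members numbered 3 of 9 tested in UB (26.5% of all genes), 4 of 10 in SP (8.52%) and 3 of 10 in NP (6.34%), and without library 1 of the E12.5 group 4 (43.8%), 8 (21.6%) and 5 (17.1%).

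The calls in NP and SP were sensitive to single libraries. In NP the Grem1 call was lost without E11.5 NP library 2 or 3 or E12.5 NP library 3 or 4 (adjusted p 0.0583 to 0.0655), and the Id1 call without E11.5 NP library 1, 2 or 3 or E12.5 NP library 3 or 4 (0.0726 to 0.0911). In SP the Id1 call was lost without E11.5 SP library 1 or 3 or E12.5 SP library 4 (adjusted p 0.05002 to 0.0576). The signs of these changes held in all of those fits.

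Bmp7 parted with age, rising in UB from 125 to 199 (0.66, SE 0.08, adjusted p = 0.00096) and falling in SP from 32.1 to 9.35 (-1.63, SE 0.27, adjusted p = 0.0078). In SP the ureteric bud marker sum went from 131 to 299.9 at E11.5 to 86.2 to 123 at E12.5, and the erythroid sum from 57.9 to 1246 to 254 to 2467. The SP stromal sum was 2853 to 3950 at E11.5 and 3324 to 5787 at E12.5. Six2 in SP was 14.5 to 29.5 at E11.5 and 1.15 to 6.35 at E12.5, and Tbx18 was 92.1 to 127 and 58.7 to 73.1. The SP sums of nephron progenitor and ureteric mesenchyme markers overlapped between the ages. In UB the nephron progenitor sum was 448 to 512 at E11.5 and 638 to 740 at E12.5, and the ureteric bud sum 3216 to 3455 and 1946 to 3002. The UB sums of stromal markers (148 to 163 and 196 to 633) and ureteric mesenchyme markers (104 to 118 and 153 to 266) did not overlap between the ages either. In NP the nephron progenitor sum was 1860 to 2105 at E11.5, and 1680 in library 1 and 2645 to 2772 in libraries 2 to 4 at E12.5. The part of these markers in the changes with age was not tested. Chrdl1 fell in SP from 9.36 ± 2.15 to 1.29 ± 0.280 (-2.16, SE 0.19, adjusted p = 0.0008). Bmp4 rose in NP from 16.2 to 25.5 (0.61, SE 0.14, adjusted p = 0.035), a call lost in the 6 fits without E11.5 NP library 1, 2, 3 or 4 or E12.5 NP library 3 or 4 (adjusted p 0.0777 to 0.119). In SP, 4 further members passed the test once E12.5 SP library 1 was left out: Bmp2 (-1.10, adjusted p = 0.0014), Bmp4 (-1.63, adjusted p = 0.014), Nog (-1.80, adjusted p = 0.013) and Smad6 (-1.30, adjusted p = 0.0054). With all libraries these stood at -0.80 (adjusted p = 0.1), -1.30 (adjusted p = 0.08), -1.12 (adjusted p = 0.32) and -0.84 (adjusted p = 0.26), so that all 4 carried the same sign. Without library 1 of the E12.5 group, Bmp5 also passed in UB (-0.36, adjusted p = 0.027, against -0.33 and 0.059). In NP, Bmp7 (0.32, adjusted p = 0.034, against 0.18 and 0.45) and Bmper (0.38, adjusted p = 0.026, against 0.04 and 0.95) also passed. Bmp4 also passed without E11.5 SP library 4 (-1.58, adjusted p = 0.032).

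**Figure D4:**
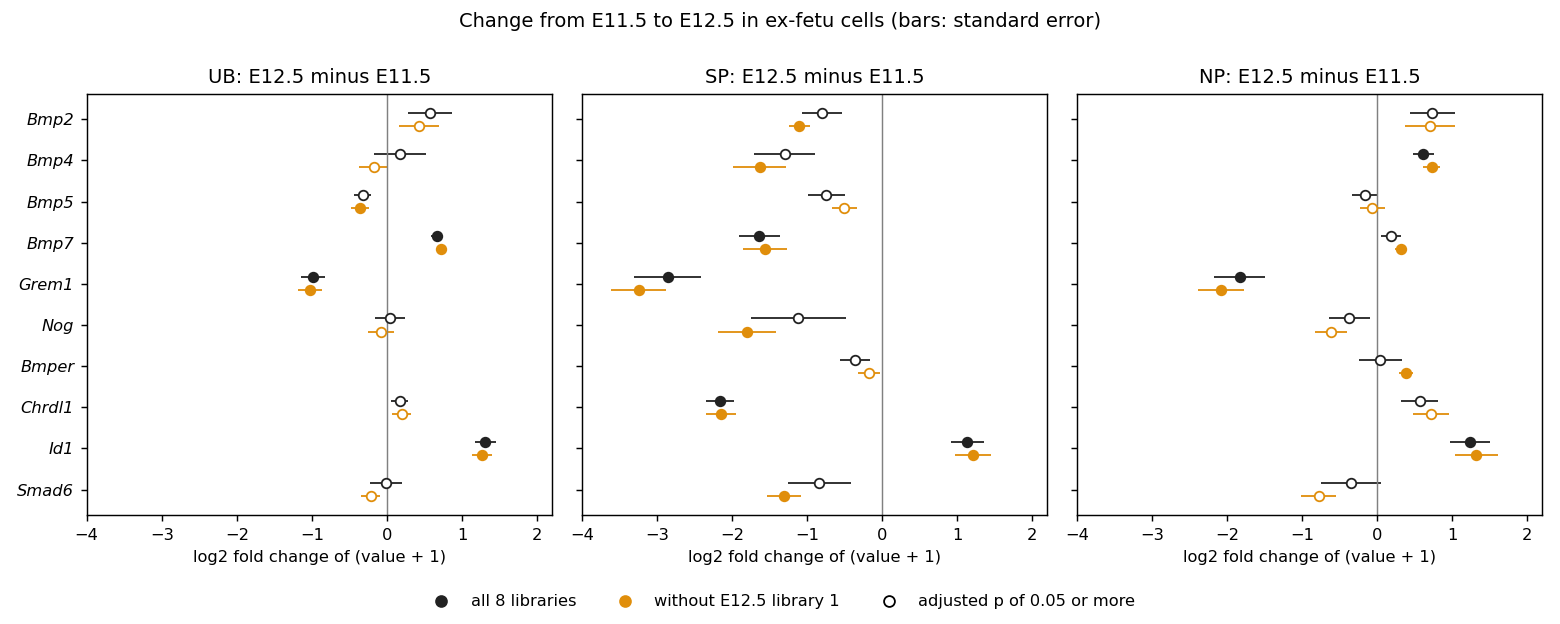
Log2 fold change of (value + 1) from E11.5 to E12.5 in ex-fetu UB, SP and NP, with all 8 libraries (black) and without library 1 of the E12.5 group (orange). Bars are standard errors, and open points have an adjusted p of 0.05 or more. Grem1 lies left of 0 and Id1 right of 0 in all 3 cell types, and Bmp2, Bmp4, Nog and Smad6 in SP turn from open to filled without library 1.

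Within the E11.5 kidney, the cell types were compared with each other. NP and SP differed in 6 of 10 (43.1% of all genes tested), UB and NP in 8 (60.2%), and UB and SP in 9 (53.6%). Bmp7 was lower in SP than in NP by 2.46 (SE 0.22, adjusted p = 2.3e-05 for NP minus SP) and than in UB by 1.9996 (SE 0.22, adjusted p = 3e-05 for UB minus SP). Bmp5 ran the other way, at 26.3 in SP and 1.28 in NP (NP minus SP -3.58, SE 0.15, adjusted p = 2.9e-07). Bmper was lower in UB than in NP by -5.65 (SE 0.10, adjusted p = 7.6e-13) and than in SP by -6.01 (SE 0.14, adjusted p = 1.4e-09).

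Bmp4 was highest in SP at E11.5, at 59.9 against 16.2 in NP (NP minus SP -1.69, SE 0.31, adjusted p = 0.0017) and 9.09 in UB (UB minus SP -2.50, SE 0.33, adjusted p = 0.00011). Between UB and SP, Grem1 was lower in UB (-1.68, SE 0.32, adjusted p = 0.0013), as was Id1 (-1.41, SE 0.22, adjusted p = 0.00038). Grem1 (-0.69, adjusted p = 0.034) and Chrdl1 (0.49, adjusted p = 0.049) also passed between UB and NP, but were -0.45 and 0.28 without E11.5 NP library 1. The Grem1 call was lost without library 1, 2 or 3 of NP or 1, 2 or 4 of UB (adjusted p 0.0649 to 0.0817) and the Chrdl1 call without library 1, 2 or 4 of NP or 1, 2 or 3 of UB (0.0514 to 0.123). The call for Bmper between NP and SP (-0.36, adjusted p = 0.044) was lost on leaving out any 1 of the 8 libraries except E11.5 SP library 1 (adjusted p 0.0562 to 0.121). Bmp2 between UB and NP (-1.01) and Smad6 between UB and SP (-0.72) were each lost without E11.5 UB library 3 (adjusted p = 0.050 and 0.052).

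The calls for Nog between SP and either other cell type did not hold in each fit with 1 library left out: NP minus SP (-1.04, adjusted p = 0.042) was lost without E11.5 NP library 2, 3 or 4 or E11.5 SP library 1 or 2 (adjusted p 0.0765 to 0.115), and UB minus SP (-0.90, adjusted p = 0.046) without E11.5 SP library 1 or 2 or any 1 UB library (0.0705 to 0.116).

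At E12.5, NP and SP differed in 4 members (34.8% of all genes tested), UB and NP in 5 (32.7%), and UB and SP in 5 (46.4%). Bmp7 stood at 198 in NP and 199 in UB against 9.35 in SP (NP minus SP 4.28, SE 0.19, adjusted p = 4.3e-07). E12.5 NP and SP libraries with the same number deviated together, so that number was also used as a block. This check cannot tell a pairing from library 1 standing apart in both groups. The block brought the genes called from 4789 to 7961 (57.8%) and the members to 5. The added gene was Id1 (-0.33, SE 0.06, adjusted p = 0.0036, against 0.1 without the block). Bmper in UB minus NP was -4.87 (SE 0.62, adjusted p = 0.00028), and -5.54 (adjusted p = 2.4e-06) without E12.5 UB library 1, the library with mesenchymal markers, where Bmper was 11.4 against 0.852 to 0.966 in the others. Bmp4 in UB minus NP (-1.24, adjusted p = 0.018) was lost without E12.5 UB library 2 or 3 (adjusted p 0.0549 to 0.0557), and Bmp5 in UB minus SP (-0.73, adjusted p = 0.031) without any 1 of libraries 2 to 4 of either group (0.0639 to 0.0859). With library 1 of both groups left out, UB and SP differed in 9 members, and 60.6% of all genes tested were called, against 46.4% with all libraries. Leaving out E12.5 UB library 1 alone added the call for Bmp4 in UB minus SP (-1.38, adjusted p = 0.0096, against -1.02 and 0.074). Leaving out E12.5 SP library 1 alone added Nog (0.94, adjusted p = 0.0072, against 0.25 and 0.76) and Grem1 (0.57, adjusted p = 0.023, against 0.18 and 0.70). Without E12.5 SP library 1, Bmp4 was called in NP minus SP (0.55, adjusted p = 0.034, against 0.22 and 0.62). Without E12.5 NP library 1, Nog was called in UB minus NP (0.80, adjusted p = 0.034, against 0.55 and 0.19).

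Among the stem cell-derived cells, iNP and iSP differed in 7 members (30.7% of all genes tested), eUB and iNP in all 10 (52.2%), and eUB and iSP in 6 (64.7%). Bmp2 (3.10, SE 0.20, adjusted p = 3.4e-06), Bmper (2.61, SE 0.15, adjusted p = 1.8e-06), Nog (1.85, SE 0.15, adjusted p = 1.7e-05) and Bmp4 (1.55, SE 0.09, adjusted p = 1.9e-06) were higher in iNP than in iSP, and Chrdl1 was lower (-1.58, SE 0.21, adjusted p = 0.00036). Bmp7, which parted NP from SP in the kidney, was 121 in iNP and 152 in iSP (-0.35, SE 0.14, adjusted p = 0.083), and it was higher in eUB than in iNP by 0.43 (SE 0.14, adjusted p = 0.028), a call lost without eUB library 2, 3 or 4 (adjusted p 0.0523 to 0.0760). Id1 was lower in eUB than in iNP by -2.48 (SE 0.18, adjusted p = 2.3e-06) and than in iSP by -2.44 (SE 0.09, adjusted p = 1.4e-08).

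Smad6 was likewise lower in eUB, by -0.64 against iNP (SE 0.13, adjusted p = 0.0023) and by -0.50 against iSP (SE 0.10, adjusted p = 0.0012), and both calls were lost in 1 fit over the 36 libraries, which takes in the wide spread of Smad6 in the ex-fetu groups (adjusted p = 0.12 and 0.22).

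Levels of different genes were compared per kilobase of exon. On this scale Id1 was first of the 10 in E11.5 SP (77.2) and NP (58.7), in iSP (132) and in iNP (139), and next after Bmp7 in E11.5 UB (27.7 against 31.2) and eUB (23.7 against 39.96). Bmp7 was the leading ligand in E11.5 UB and NP, in eUB and in iSP (37.8, next to 13.0 for Bmp4), whereas Bmp4 led in E11.5 SP (26.6 against 7.98 for Bmp7) and in iNP (38.8 against 30.0). The summed level of the 4 ligands per kilobase was 46.7 ± 15.0 in E11.5 SP and 52.1 ± 1.503 in iSP, and that of the 4 antagonists and modulators 44.2 ± 8.11 and 4.27 ± 0.0941. In NP the ligand sum was 55.9 ± 1.76 at E11.5 and 78.1 ± 9.96 in iNP, and the antagonist sum 27.3 ± 2.74 and 16.1 ± 2.23. In UB the ligand sum was 40.5 ± 4.22 at E11.5 and 51.5 ± 1.91 in eUB, and the antagonist sum 7.72 ± 0.616 and 3.82 ± 0.242. At E12.5 the ligand and antagonist sums were 20.1 ± 6.36 and 24.4 ± 3.04 in SP and 69.5 ± 10.2 and 24.5 ± 6.04 in NP. In E12.5 UB they were 60.6 ± 2.11 and 6.90 ± 2.07. Bmper was the largest part of the antagonist sum in E11.5 SP, NP and iNP (23.3, 17.9 and 11.1). It was the smallest in E11.5 UB and eUB (0.155 and 0.282), where Nog had the highest mean (3.34 and 1.70). In E11.5 UB Grem1, at 3.23 ± 0.529, was within the spread of Nog, at 3.34 ± 0.535. Per kilobase of the longest transcript, however, Chrdl1 (2.37) exceeded Nog (1.70) in eUB. In iSP Chrdl1 (1.76) and Bmper (1.64) led. The sums describe mRNA only.

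**Figure D5:**
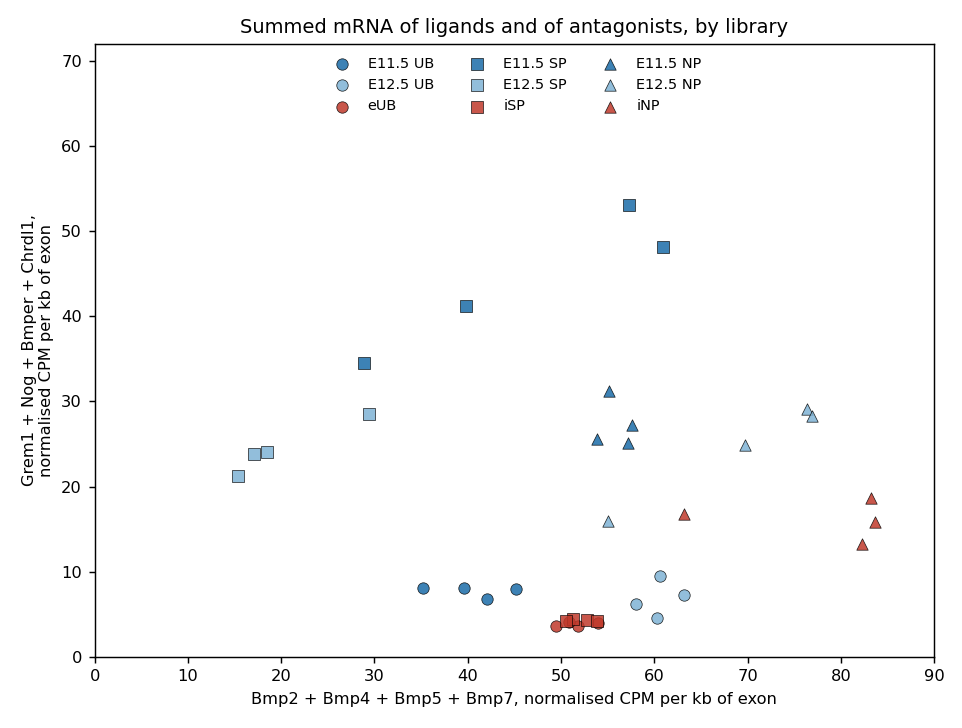
Summed normalised CPM per kilobase of exon of the 4 ligands (horizontal axis) and of the 4 antagonists and modulators (vertical axis), 1 point per library. Colours are as in the plot of levels, with circles for UB, squares for SP and triangles for NP. The iSP libraries (antagonist sums 4.19 to 4.40) lie beside eUB (3.56 to 4.08) and far below E11.5 SP (34.5 to 53.1).

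Beyond the members, 59 other genes of the pathway were listed, of which 53 are in the table. Against E11.5, 31 of 44 tested were called in eUB (8 higher, 23 lower), 34 of 46 in iSP (8 and 26) and 37 of 44 in iNP (16 and 21), where 60.5%, 67.6% and 64.7% of all genes were called. Their median log2 fold changes were -0.32, -0.69 and -0.53. Against E12.5, 23 of 40 tested were called in eUB (6 higher, 17 lower), 31 of 47 in iSP (8 and 23) and 22 of 45 in iNP (11 and 11). Of all genes, 44.4%, 62.1% and 44.3% were called there. The median log2 fold changes of these pathway genes against E12.5 were -0.18, -0.48 and -0.15. Against E11.5, Fst, which encodes the activin and Bmp antagonist follistatin, was the most reduced in each cell type. It was 2.40 ± 0.372 in eUB against 51.5 ± 8.97 (-3.94, SE 0.14, adjusted p = 3.6e-08) and 0.641 ± 0.224 in iSP against 188 ± 65.3 (-6.78, SE 0.26, adjusted p = 8.5e-08). In iNP it was 13.0 ± 0.706 against 114.8 ± 48.4 (-2.93, SE 0.29, adjusted p = 2e-05). The follistatin-like gene Fstl3 and Crim1, a transmembrane protein that binds Bmps, came next in eUB (-3.32 and -2.16) and in iSP (-3.67 and -3.38), and all 4 of these passed the test. In iNP those places were taken by Pmepa1, a target gene that dampens Smad signalling (-2.14), and by the type I receptor Acvr1 (-2.01). In the kidney at E12.5 the mean of Fst was 4.37 in UB, 28.9 in SP and 13.2 in NP. Fst was called from E11.5 to E12.5 in each. Against E12.5 it was called in iSP (0.641), but not in eUB (2.40) or iNP (13.0). Fstl3, at 1.84 in E12.5 UB, was not called in eUB against E12.5 either, while Crim1 was. In iSP both were called against E12.5. In iNP, Acvr1 was called against E12.5 and Pmepa1 was not.

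Among receptors and co-receptors, 10 of 11 were tested in each of the 3 comparisons with E11.5. There 5 were lower in eUB (28.5% of all genes were), 6 in iSP (32.1%) and 5 in iNP (29.2%), with 2 higher in each (32.1%, 35.5% and 35.5%). Bmpr1b, a type I receptor, was the receptor that rose most in eUB against E11.5, from 33.4 ± 2.25 to 78.7 ± 2.27 (1.21, SE 0.07, adjusted p = 6.8e-07). It was 67.8 ± 15.0 in E12.5 UB, where it was called against E11.5, and eUB was not called against E12.5. Dand5, an antagonist of the same family as Grem1, rose against E11.5 in eUB (1.32, SE 0.11), iSP (1.11, SE 0.12) and iNP (1.22, SE 0.12), though from levels near 1. Of the 6 Smads and Smurf ubiquitin ligases listed, all 6 were lower than E11.5 in iNP (29.2% of all genes were) and 5 in iSP (32.1%). In eUB, where 5 were tested, 1 was higher and 1 lower. Against E12.5, 6 of 9 receptors tested were called in eUB (1 higher, 5 lower). In iSP they were 7 of 10 (1 and 6) and in iNP 6 of 10 (1 and 5). Of the Smads and Smurfs, 1 was called against E12.5 in eUB, 4 in iSP and 3 in iNP, all lower. Of all genes, 44.4%, 62.1% and 44.3% were called against E12.5 in eUB, iSP and iNP.

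Against E11.5, of the 10 other targets, 5 were higher and 3 lower in iNP (35.5% and 29.2% of all genes were), and 2 and 3 in iSP (35.5% and 32.1%). In eUB 2 were higher and 4 lower (32.1% and 28.5%). Msx1, a homeobox gene that Bmp4 induces in many mesenchymes, rose most in iNP, from 1.75 ± 1.34 to 38.5 ± 9.20 (3.93, SE 0.29, adjusted p = 2.8e-06), with the ligand gene Gdf6 (2.18, SE 0.12) and the T-box gene Tbx3 (2.17, SE 0.39) next. Tbx3 also rose in iSP, from 93.4 ± 46.7 to 172 ± 20.3 (1.02, SE 0.32, adjusted p = 0.018), a call lost without E11.5 SP library 3 (0.86, adjusted p = 0.055). Vwc2, a chordin-like antagonist, rose in iSP from 0.948 to 4.71 (1.56, SE 0.12). Bmp3, a ligand that opposes the others, was higher in eUB than in E11.5 UB, at 2.35 against 0.633 (1.02, SE 0.19). It was 4.46 in E12.5 UB, and against that age it was called lower in eUB. Of the other targets, 5 were called against E12.5 in eUB (2 higher, 3 lower), 6 in iSP (4 and 2) and 4 in iNP, all higher. Of all genes, 44.4%, 62.1% and 44.3% were called there.

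As a description, the genes whose 9 group means on the log2 scale followed each member most closely were sought among all genes reaching a mean of 5 in some group. The pattern of Bmper was closest to Tshz1 (Pearson r = 0.983 over 9 group means) and Emp2 (0.981), that of Bmp7 to Ttf2 (0.978) and Dbndd1 (0.974), that of Bmp5 to Prkar1b (0.965) and Tmsb4x (0.962), and that of Id1 to Atp5j and Efnb1 (both 0.964). For Smad6 they were Gata4 (0.962) and Dpep1 (0.913), for Grem1 Zswim6 (0.954) and Larp7 (0.949), for Bmp4 Scrn1 (0.944) and B3gat3 (0.934), for Nog 1500009L16Rik (0.928) and Prkag1 (0.883), for Bmp2 Dusp5 (0.925) and Thsd4 (0.891), and for Chrdl1 Rnf122 (0.812) and H2afy2 (0.793). Among the members themselves the closest pair was Grem1 and Nog (0.812). The group means come from the same libraries for every gene.

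In the mouse genome (GRCm38, GENCODE vM21), Bmp2 lies on chromosome 2 at 133552159 to 133562885, Bmp7 at 172868012 to 172940321, Grem1 at 113746164 to 113758646 and Id1 at 152736251 to 152737410 of the same chromosome. Bmp5 (75775364 to 75900310), Bmper (23223076 to 23485200) and Smad6 (63953076 to 64022059) are on chromosome 9, Bmp4 is on chromosome 14 (46383520 to 46390669), Nog on chromosome 11 (89300638 to 89302332), and Chrdl1 on the X chromosome (143285674 to 143394262). The values sum reads over the exons of each gene and do not separate transcripts.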

How the data were processed

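The authors trimmed reads of stranded mRNA libraries with Cutadapt, aligned them with STAR and deposited 1 table of CPM scaled with edgeR normalisation factors, an expression signal per gene. The methods and the submitters' processing notes write the build as GRCh38, although the gene identifiers are mouse, and 22642 of the 22761 (99.5%) are in GENCODE vM21, which was used for positions and lengths. Fold changes and p-values from the authors' own comparisons were not used. In each library every value was a whole multiple of 1 read (100% within 0.01), so reads were recovered for count tests.

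The values were tested with limma 3.58.1 (trend) on log2(value + 1) in R 4.3.3, over genes at 1 or more in at least 4 of the 8 libraries, in 18 comparisons and, for differences between cell types, over all 36 libraries. Fold changes passed at a Benjamini-Hochberg adjusted p under 0.05. Tables and figures were made with Python 3.11.15, pandas 2.3.3 and matplotlib 3.10.9. edgeR 4.0.16 and DESeq2 1.42.0 on recovered reads, other scalings, filters and pseudocounts, the replicate number as a block and leaving out each library were alternatives. The script was tested on simulated data. Same-numbered libraries deviated together in every pair only for E12.5 NP and SP (correlation of deviations 0.543 to 0.700, a pairing taken from the data). These correlations cannot tell a pairing from library 1 standing apart in both groups. Each sample is the pooled embryonic kidneys of 1 mouse or 1 batch, so p-values measure the spread between those. Depth was 13 to 52.5 M reads per library. Counting error alone is behind the limit of 3 reads.

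The 10 members, the pathway lists and the cell type markers were chosen with earlier results of these data known. All members are named. Of the other pathway genes, the 3 highest and 3 lowest log2 fold changes among those called against E11.5 are named, and likeness is the Pearson correlation of group means. The summed early response genes were chosen after seeing the values.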

Additional observations from a re-analysis of the deposited data

Results flagged for a closer look

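In 13 of the 90 groups of 4 libraries searched (10 genes in 9 groups), 1 library stood apart at either end by a gap above Dixon's limit of 0.829 of the group's range, and in all 13 it was the highest. Chance gives such a gap at either end in about 1 of 20 independent groups of normally distributed values. These groups share libraries, so that rate is not the chance value for this count. The search also used normalised CPM, where high values stand out more than on the log2 scale of the tests. In normalised CPM, E12.5 SP library 1 was such a library for Bmp2 (21.1), Bmp4 (43.55), Grem1 (13.2), Nog (22.5) and Smad6 (78.3). Library 1 of E12.5 NP (80.9) and of E12.5 UB (48.5) stood out for Smad6, and E12.5 UB library 1 also for Bmper (11.4). The others were Grem1 in E11.5 UB library 3 (16.7) and iSP library 4 (1.52), and Id1 in E11.5 SP library 4 (140.4), iNP library 2 (227.6) and eUB library 2 (32.8). The markers and early response genes that move with library 1 of the E12.5 groups are given in the report, and their part in these values was not tested.

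The change from E11.5 to the stem cell-derived cells differed between cell types in 20 of 30 tests (limma over 36 libraries, adjusted p under 0.05, differences on the log2 scale), being 7 of 10 members for NP minus SP (25.6% of all genes), 5 for UB minus NP (41.8%) and 8 for UB minus SP (39.9%). For NP minus SP the differences were 3.23 for Bmp2, 3.24 for Bmp4, 4.65 for Bmp5, -2.81 for Bmp7, 2.14 for Grem1, 2.89 for Nog and 2.97 for Bmper. For UB minus NP they were -1.61 for Bmp4, -3.25 for Bmp5, 0.89 for Bmp7, 0.81 for Chrdl1 and -1.50 for Id1. For UB minus SP they were 3.30 for Bmp2, 1.63 for Bmp4, 1.41 for Bmp5, -1.92 for Bmp7, 1.99 for Grem1, 1.87 for Nog, 4.10 for Bmper and -1.04 for Id1. The Chrdl1 difference was lost without E11.5 NP library 3 (0.67, adjusted p = 0.066) or iNP library 2 (0.60, adjusted p = 0.076). In the differences with UB, the line and protocol of eUB cannot be told apart from cell type.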

How the results depend on the processing

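Of 2610 alternative values of 159 fold changes of members and pathway genes, 2433 kept direction and side of the threshold, 121 fell short of it, 45 newly passed and 11 turned direction, none of these 11 called. They were Id1 in iNP against E12.5 (-0.02 without E12.5 NP library 1 and -0.12 without iNP library 2, in a range of -0.12 to 0.13 over the fits that left out 1 library), Nog in iNP against E11.5 (-0.17 under quantile normalisation), Bmper in eUB against E12.5 (0.29 without E12.5 UB library 1, in a range of -0.62 to 0.29), Bmper with age in NP (4 fits, in a range of -0.10 to 0.38), Nog in E12.5 UB minus SP (-0.38 in edgeR and -0.021 without E12.5 SP library 4, in a range of -0.021 to 0.94) and Grem1 in E12.5 UB minus SP (-0.0093 in edgeR). Members called in 1 fit over 36 libraries were 3 in eUB against E11.5 (50.9% of all genes), 3 in eUB against E12.5 (43.5%; also 3 with a minimum value of 5, 45.5%) and 8 in SP with age (19.6%), and 9 for E12.5 UB against SP with library 1 of both groups left out (60.6%). Member calls outside eUB against E11.5 that were lost in the fit over 36 libraries included Nog in eUB (adjusted p = 0.10) and Id1 in iSP (0.24) against E12.5, Bmp4 in NP with age (0.21) and, at E11.5, Bmper in NP minus SP (0.46). Genes called with age were 3141, 762 and 2097 in SP and 1572, 469 and 1912 in NP in the fit over 36 libraries, with a minimum of 5 and in DESeq2, against 1162 and 850. A replicate block called 2365 genes with age in UB (3648 without it) and 7961 for E12.5 NP against SP (4789 without it). The block moved no other count of genes or members by more than 1.5 times.

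Leaving out 1 library, genes called with age ranged from 2359 to 6031 in UB, 420 to 2943 in SP and 188 to 2289 in NP, members called with age from 3 to 8 in SP and 0 to 5 in NP, and members in iNP against E12.5 from 4 to 7. Counts with age therefore carry the least weight. The cause of these shifts was not tested. With 4 libraries a group, a difference that missed the threshold is not shown to be absent, and members near 1 normalised CPM have understated fold changes.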
